A study of Mus musculus with 12 samples.

Results

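Transcripts of 9 voltage-gated sodium channel genes were followed in the dorsal root ganglia of 12 mouse libraries. The genes were taken by name from the deposited table, each name being found once among 54532 genes: the alpha subunits Scn1a, Scn8a, Scn9a, Scn10a, Scn11a, Scn3a and Scn7a and the beta subunits Scn2b and Scn4b. Their names, not their values, put them in the set. Dorsal root ganglia are the clusters beside the spinal cord that house the body's sensory neurons. The ganglia came from C57BL/6 mice, and both groups carry the treatment label D-Alanine. The 6 control libraries have the genotype label CDH5-Cre, a recombinase driven by the promoter of an endothelial cadherin. The 6 DAAO libraries have the genotype label DAAO-TGCdh5; D-amino acid oxidase makes hydrogen peroxide from D-alanine. Cre stands in the sample names of the DAAO group but not in its genotype label, so by the labels alone Cre and the transgene cannot be told apart as the difference between the genotypes. Age and the number of animals behind a library are not given in the labels. P-values therefore measure the spread between these samples, which may be technical in part. The series names sensory ataxia and oxidative stress in its title, and the comparison asked which ganglion transcripts differed between the genotypes.

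A sodium channel is built on a single large alpha subunit that forms the pore and senses voltage, joined by small beta subunits that alter its gating and its place in the membrane. Sensory neurons divide the alpha subunits among themselves. Scn1a and Scn8a (the channels Nav1.1 and Nav1.6) are prominent in large myelinated neurons, where Scn8a is the main channel of the node of Ranvier. Scn9a, Scn10a and Scn11a (Nav1.7, Nav1.8 and Nav1.9) are known for their roles in nociceptors, the neurons of pain. Scn3a (Nav1.3) is mainly an embryonic channel that can return after nerve injury, and Scn7a encodes Nax, an atypical family member linked to sodium sensing.

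To show the start regions of the genes the results turn on, RefSeq sequence on GRCm38.p6 is given for Scn1a, which fell, for Scn8a, and for Scn9a, the chromosome 2 neighbour of Scn1a. Each run lies before a RefSeq start of the gene, free of that gene's own exons, 5′ to 3′ on the gene's strand, and capitals mark a match to a searched motif. The Scn1a run is chr2:66440841-66441087 on the minus strand, and it overlaps an exon of the predicted gene Gm13629 on the other strand. Scn8a has runs at chr15:100870395-100870644 and chr15:100936021-100936270 on the plus strand, from a pair of RefSeq starts that lie within the gene, downstream of the first base the deposited table gives. The Scn9a run is chr2:66634963-66635212 on the minus strand.
Scn1a: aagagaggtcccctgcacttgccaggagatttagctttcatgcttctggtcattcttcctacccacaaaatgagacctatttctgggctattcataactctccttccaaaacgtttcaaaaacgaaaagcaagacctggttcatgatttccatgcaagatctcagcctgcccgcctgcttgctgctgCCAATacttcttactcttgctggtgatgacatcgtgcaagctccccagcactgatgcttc
Scn8a first start: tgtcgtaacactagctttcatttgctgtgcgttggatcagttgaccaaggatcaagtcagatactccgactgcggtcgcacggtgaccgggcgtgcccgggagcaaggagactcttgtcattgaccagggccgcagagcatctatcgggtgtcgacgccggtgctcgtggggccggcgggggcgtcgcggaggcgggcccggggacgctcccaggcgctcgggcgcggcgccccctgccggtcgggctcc
Scn8a other start: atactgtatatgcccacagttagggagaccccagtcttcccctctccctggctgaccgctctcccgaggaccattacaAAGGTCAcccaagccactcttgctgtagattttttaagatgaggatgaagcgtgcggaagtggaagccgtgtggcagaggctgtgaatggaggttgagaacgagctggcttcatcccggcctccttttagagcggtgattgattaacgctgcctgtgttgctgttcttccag
Scn9a: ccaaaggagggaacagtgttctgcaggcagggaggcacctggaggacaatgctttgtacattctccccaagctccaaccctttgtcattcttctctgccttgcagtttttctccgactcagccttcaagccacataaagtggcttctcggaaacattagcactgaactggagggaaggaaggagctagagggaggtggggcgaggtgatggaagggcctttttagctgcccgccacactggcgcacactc

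In Scn1a the capitals are CCAAT, found in 33.8% of all 32851 windows of 250 bases before a start when both strands are searched. In the other start of Scn8a they are AAGGTCA, the extended site of estrogen-related receptors, found in 4.08% of windows. A search for TATAAA (in 12.4% of windows), TGANTCA (6.75%) and TGACGTCA (1.55%) matched none of the 9 windows of the 8 genes that had one. The other searched motifs were GGGCGG (32.7% of windows, and Scn7a among these genes) and TGTGGT (14.0%, and Scn2b), and CCAAT was also found for Scn4b. These matches are descriptions of letters, not sites of binding. The base composition differed: G and C made up 68.0% of the window at the first Scn8a start, with 30 CG pairs, against 46.8% and 4 pairs for Scn1a and 54.4% and 5 for Scn9a. The median over all windows was 52.4% with 6 pairs.

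Library totals lay between 13227518 and 23884927 counts, and the 17002 genes tested held at least 99.7% of them. Sensory neuron markers were abundant in the 12 libraries: peripherin (Prph) stood between 1402 and 2913 CPM (counts relative to the size of the library, TMM-normalised) and Pou4f1, a sensory neuron transcription factor, between 142 and 320. Control 2 stood apart in the sodium channels, being the lowest of 12 libraries in 6 of the 9 genes, and control 4 was the highest in 6. Control 2 also had the highest summed level of 10 myelinating Schwann cell markers, 22492 CPM, and of 6 central oligodendrocyte markers, 2786 CPM. The latter sum ran from 210 to 2786 in controls and from 314 to 793 in DAAO. Single genes weighed heavily in both sums. In control 2 Mbp alone made up 13172 CPM of the Schwann cell sum. In the oligodendrocyte list Mal stood at 192 CPM or more in every control, while Mobp ran from 11.4 to 2097 CPM in controls. Control 4 had the highest summed level of 9 skeletal muscle markers, 2369 CPM, in a range from 12.6 in controls and from 5.34 to 392 in DAAO. The summed level of 7 spinal motor and interneuron markers ran from 4.26 to 118 CPM in controls, highest in control 2, and from 12.1 to 67.1 in DAAO. Of them Chat was at 0 in 7 libraries, Slc18a3 in 6 and Mnx1 in 10, while Slc5a7 was at 3.11 to 6.65 CPM and Gad1, Slc32a1 and Slc6a5 reached 48.5, 32.7 and 28.2 CPM. Both Xist and the sum of 4 Y-linked genes exceeded 10 CPM in 5 libraries (controls 1 and 2, DAAO 1, 2 and 6), and mitochondrial transcripts took 4.05% to 7.65% of control counts and 3.32% to 5.13% of DAAO counts. The part of these differences in the results below was not tested beyond the values given beside them.

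Of the 9 sodium channel genes, Scn1a fell in DAAO ganglia and the other 8 did not pass (edgeR's quasi-likelihood test, adjusted over all genes). Over all genes tested 0.753% passed in either direction 0.247% passed as lower, and 0.506% passed as higher, which none of the 9 genes did. The log2 fold change was negative in 7 of the 9 genes and in 49.6% of all genes. Its median was -0.13 for the 9 and 0.00 for all genes. An unadjusted p under 0.05 was reached by Scn1a and Scn8a, 2 of 9 genes, against 10.3% of all genes. The groups overlapped in all 9 genes, where 1.45% of all genes had groups that did not overlap. In bulk tissue, fewer cells of a type and less RNA per cell cannot be told apart.

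**Figure D1:**
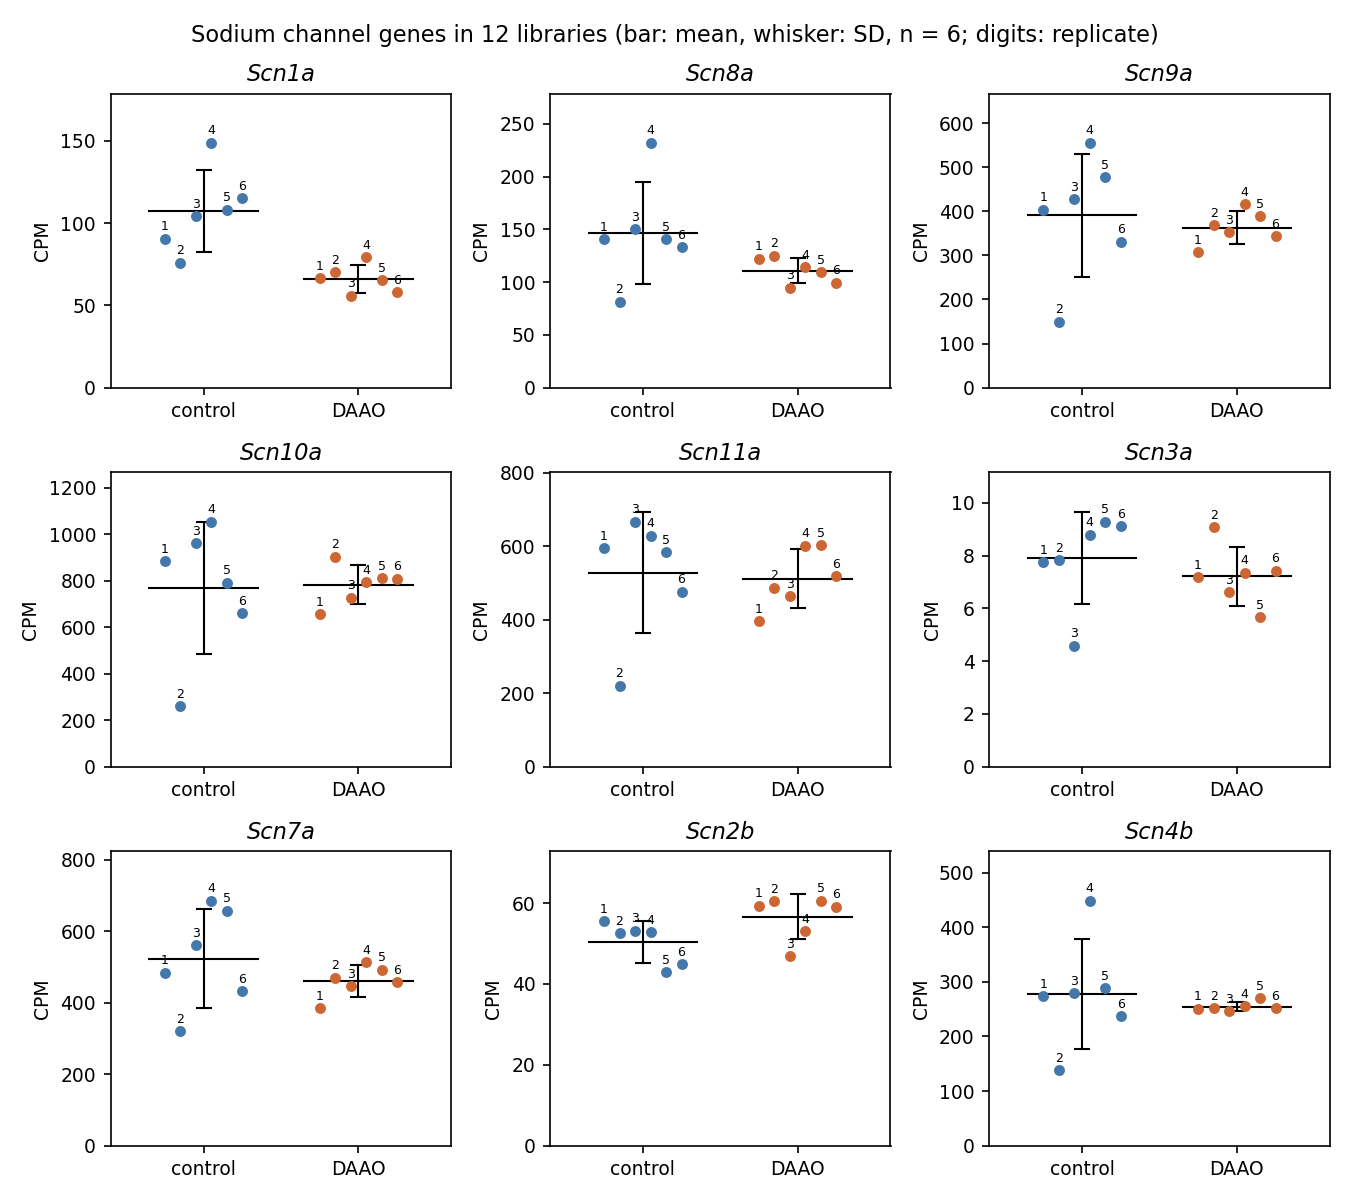
Normalised CPM of the 9 sodium channel genes in each of the 6 control and 6 DAAO libraries, 1 panel per gene, each point a library with its replicate number, each line a group mean and each bar its SD. In Scn1a the DAAO libraries lie between 55.9 and 79.2 CPM and overlap the controls only at control 2 (75.9).

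Scn1a (ENSMUSG00000064329) lies at chromosome 2, 66270778 to 66440840 on GRCm38, minus strand. Its lowest, median and highest levels were 75.9, 106 and 149 CPM in controls and 55.9, 65.9 and 79.2 CPM in DAAO. All 6 DAAO libraries were below the control median, and only control 2, at 75.9, lay within their range, below DAAO 4. The mean fell by 38.5%, from 107 ± 24.8 to 65.9 ± 8.44 CPM (SD, n = 6). The log2 fold change was -0.70 ± 0.15 (SE, adjusted p = 0.0330 by edgeR). An interval of 2 SE runs from -0.995 to -0.409. Without control 2 the change was -0.78 (adjusted p = 0.00508 by edgeR), when 322 genes passed in the whole table.

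The call of Scn1a depended on single libraries. It was lost without control 3, 4, 5 or 6 or DAAO 1, 2, 3, 5 or 6, with adjusted p from 0.0511 to 0.117 by edgeR and a log2 fold change from -0.78 to -0.58 over the 12 fits that left out 1 library. Without the 5 libraries with both Xist and Y-linked transcripts the value was -0.83 and did not pass (adjusted p = 0.263, when 4 genes passed in the whole table).

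**Figure D2:**
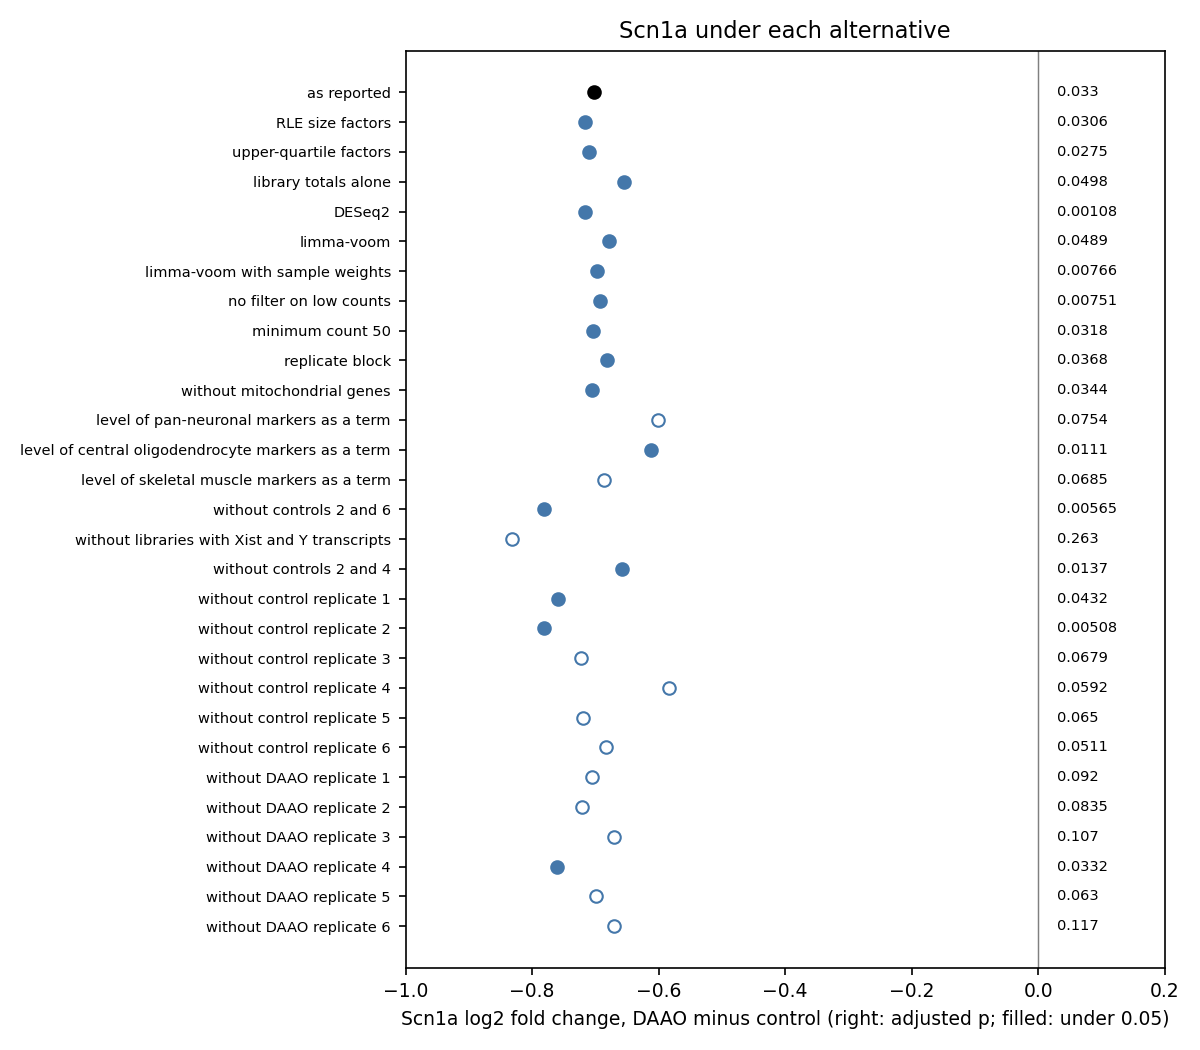
Log2 fold change of Scn1a (horizontal axis, DAAO minus control) under the main setting and 28 alternatives (1 row each), filled where the adjusted p was under 0.05. All points lie between -0.83 and -0.58, below 0, and 16 of the 28 alternatives are filled.

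Scn8a (ENSMUSG00000023033; chromosome 15, 100869858 to 101045938, plus strand), the main nodal channel, had the next largest difference. Its lowest, median and highest levels were 81.6, 141 and 232 CPM in controls and 94.8, 112 and 125 in DAAO. The DAAO libraries lay inside the control range, all 6 of them below the control median. The means were 146 ± 48.6 and 111 ± 12.1 CPM (SD, n = 6), with a log2 fold change of -0.40 ± 0.18 SE that did not pass (adjusted p = 0.460 by edgeR). It was -0.52 without control 2 (adjusted p = 0.0726) and -0.22 without control 4, and passed without controls 2 and 6 (-0.59, adjusted p = 0.0337), an alternative that also put 648 genes past the threshold over the whole table.

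With all 12 libraries the 3 nociceptor channels stood close to their control means. Without controls 2 and 6 their log2 fold changes were -0.36 for Scn9a, -0.27 for Scn11a and -0.24 for Scn10a. None of these passed (adjusted p = 0.0980, 0.234 and 0.299 by edgeR). In that fit 8 of the 9 sodium channel genes had negative values, and 648 genes passed in the whole table. Scn10a (ENSMUSG00000034533; chromosome 9, 119608456 to 119719322, minus strand), the tetrodotoxin-resistant channel of nociceptors, ranged from 260 to 1055 CPM in controls and from 656 to 903 in DAAO, with means of 769 ± 284 and 783 ± 84.0. The low control value of 260 was that of control 2, and the next control stood at 661. The log2 fold change of Scn10a was 0.03 ± 0.24 SE (adjusted p = 0.991 by edgeR), and 2 SE reach from -0.45 to 0.50. It was -0.15 without control 2 and 0.14 without control 4.

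Scn9a (ENSMUSG00000075316; chromosome 2, 66480080 to 66634962, minus strand), which amplifies small depolarisations in nociceptors, ranged from 150 to 556 CPM in controls and from 308 to 416 in DAAO. The DAAO libraries all lay within the control range. The log2 fold change was -0.11 ± 0.22 SE (adjusted p = 0.940 by edgeR), with 2 SE from -0.55 to 0.33; it was -0.27 without control 2 and 0.021 without control 4. Scn11a (ENSMUSG00000034115; chromosome 9, 119753759 to 119825456, minus strand), whose current is persistent and flows near the resting potential, ranged from 220 to 667 CPM in controls and from 396 to 602 in DAAO. Its log2 fold change was -0.05 ± 0.21 SE (adjusted p = 0.976 by edgeR), with 2 SE from -0.46 to 0.37; it was -0.20 without control 2 and 0.021 without control 3.

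Scn3a (ENSMUSG00000057182; chromosome 2, 65457118 to 65567627, minus strand) was scarce, with 92 to 188 counts per library. Its mean was 7.90 ± 1.74 CPM in controls against 7.22 ± 1.12 in DAAO (SD, n = 6). The log2 fold change of this injury-responsive channel was -0.13 ± 0.21 SE (adjusted p = 0.912 by edgeR), with 2 SE from -0.55 to 0.30, and it ran from -0.26 without control 3, whose level was the lowest, to -0.065 without DAAO 5. Scn7a (ENSMUSG00000034810; chromosome 2, 66673425 to 66784914, minus strand), the gene of Nax, had 320 to 686 CPM in controls and 385 to 514 in DAAO. All 6 DAAO libraries lay below its control median and within the control range. Its log2 fold change of -0.18 ± 0.16 SE did not pass (adjusted p = 0.795 by edgeR), and was -0.29 without control 2 and -0.089 without control 4.

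Of the beta subunits, Scn2b (ENSMUSG00000070304; chromosome 9, 45117782 to 45130070, plus strand), which is linked covalently to alpha subunits, had 42.9 to 55.6 CPM in controls and 46.9 to 60.6 in DAAO. In 5 of 6 DAAO libraries it lay above the control median, the exception being DAAO 3. The log2 fold change of 0.17 ± 0.11 SE did not pass (adjusted p = 0.652 by edgeR; 2 SE from -0.05 to 0.39), and it ran from 0.11 without control 5 to 0.21 without DAAO 3. Scn4b (ENSMUSG00000046480; chromosome 9, 45138395 to 45154152, plus strand), known for resurgent sodium current, ranged from 139 to 449 CPM in controls but only from 246 to 270 in DAAO. Its log2 fold change was -0.13 ± 0.19 SE (adjusted p = 0.904 by edgeR), and was -0.26 without control 2 and 0.063 without control 4.

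The spread between control libraries was the larger one in all 9 genes, as it was in 78.8% of all genes tested. The coefficient of variation of Scn10a was 36.9% in controls and 10.7% in DAAO. That of Scn4b was 36.2% and 3.23%, and that of Scn1a 23.1% and 12.8%. Scn2b was the most even, with 10.2% and 9.73%. Controls 2 and 4 held most of the lowest and highest values.

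**Figure D3:**
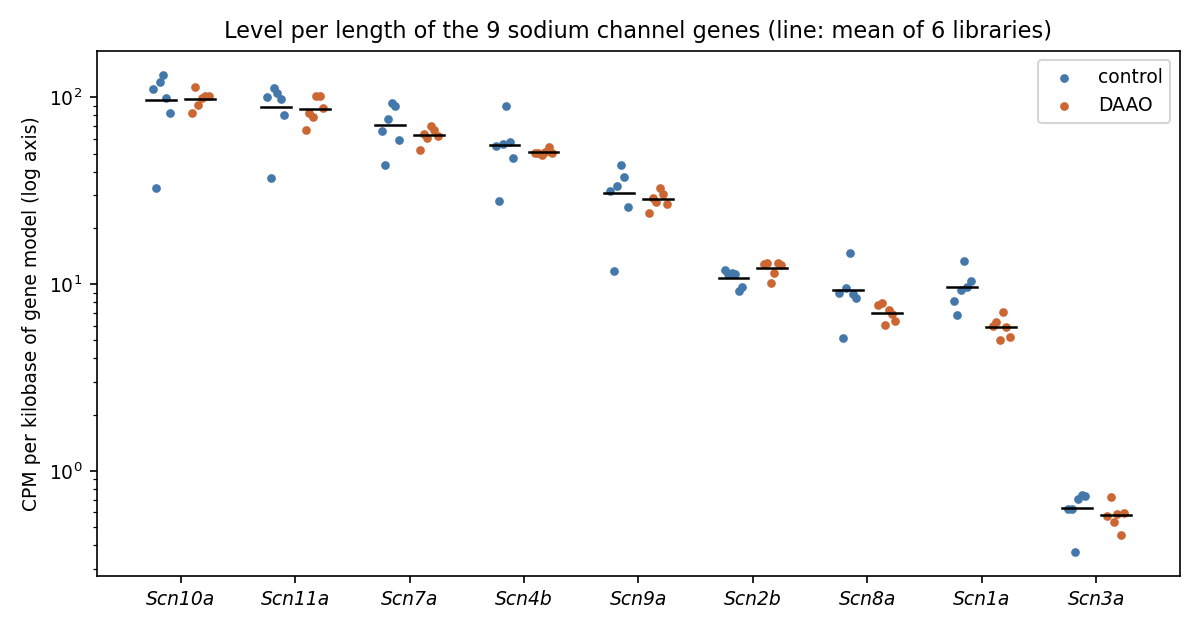
Level per length (CPM per kilobase of the deposited gene length, log axis) of the 9 genes in each library, control and DAAO side by side, with a line at the mean of 6 libraries. Scn10a leads near 100 and Scn3a is below 1, and in DAAO Scn1a lies below Scn8a.

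Compared per length, as CPM per kilobase, Scn10a and Scn11a led the 9 genes. In controls the order of levels was Scn10a (96.5 ± 35.6), Scn11a (89.0 ± 27.6), Scn7a (71.3 ± 19.0), Scn4b (55.7 ± 20.2), Scn9a (30.6 ± 11.0), Scn2b (10.8 ± 1.11), Scn1a (9.61 ± 2.22), Scn8a (9.29 ± 3.08) and Scn3a (0.634). Among controls the neighbours Scn10a and Scn11a, Scn11a and Scn7a, Scn7a and Scn4b, Scn2b and Scn1a, and Scn1a and Scn8a did not differ beyond the larger of their SDs. In DAAO the levels were Scn10a 98.4 ± 10.5, Scn11a 86.2 ± 13.6, Scn7a 62.8 ± 6.04, Scn4b 51.0 ± 1.65, Scn9a 28.4 ± 2.95, Scn2b 12.2 ± 1.18, Scn8a 7.03 ± 0.768, Scn1a 5.91 ± 0.758 and Scn3a 0.580. There only Scn10a and Scn11a overlapped by that measure. Scn1a stood above Scn8a in 3 of 6 control libraries and below it in all 6 DAAO libraries.

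**Figure D4:**
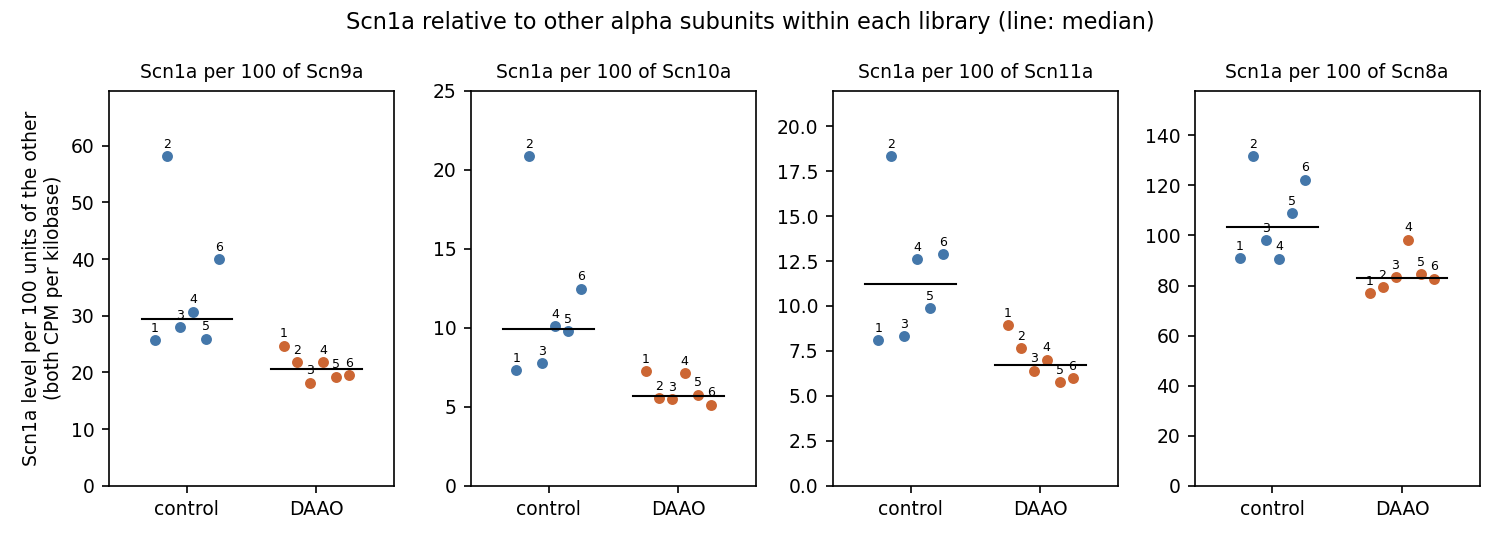
Scn1a level per length per 100 of Scn9a, Scn10a, Scn11a and Scn8a within each library (vertical axis), control and DAAO side by side, each point a library with its replicate number and each line the group median. The groups do not overlap for Scn9a and Scn10a, and control 2 holds the highest ratio in each panel.

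Ratios within a library set Scn1a against the other channels of the same RNA. Scn1a is the gene that passed, so lower ratios in DAAO are not separate evidence of its fall. How often the ratios of other gene pairs lie apart over the whole table was not computed. Per 100 of Scn9a, both as CPM per kilobase, Scn1a stood at 25.7, 29.3 and 58.1 in controls (lowest, median, highest) and at 18.2, 20.6 and 24.7 in DAAO. These ranges did not overlap. Per 100 of Scn10a it stood at 7.32, 9.93 and 20.9 in controls and at 5.14, 5.66 and 7.23 in DAAO, again without overlap, though the nearest libraries were 7.32 and 7.23. Per 100 of Scn11a it ranged from 8.11 to 18.3 and from 5.78 to 8.93, and per 100 of Scn8a from 90.7 to 132 and from 76.8 to 98.3, and both pairs overlapped. Control 2 gave the highest of each of these Scn1a ratios, so that without it the ranges of Scn9a and Scn10a lie apart as before. Scn8a per 100 of Scn9a overlapped as well, with medians of 30.6 and 23.2.

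Of other sodium channel genes, the beta subunit gene Scn3b stood at 16.1 ± 2.65 CPM per kilobase over the 12 libraries (SD), and its log2 fold change of 0.13 ± 0.14 SE did not pass (adjusted p = 0.860 by edgeR). Scn2a and Scn4a, channels best known from brain and skeletal muscle, were near 1 CPM per kilobase (1.15 ± 0.258 and 0.877 ± 0.464). Their log2 fold changes of 0.04 and -0.33 did not pass either (adjusted p = 0.981 and 0.839 by edgeR).

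Scn1a lies in a cluster of related genes. That cluster on chromosome 2, from 65457118 to 66784914, holds 19 genes, 9 of them tested, and Scn1a was the 1 that passed. Within it Galnt3 and Csrnp3, which are not channels, had log2 fold changes of 0.02 and 0.07. Ttc21b, a ciliary transport gene, had -0.53 (adjusted p = 0.388 by edgeR), and Gm13629, which starts just beyond Scn1a on the other strand, had -1.31 (0.527). Gm13629 was scarce, with an average log2 CPM of 0.45. On chromosome 9, 0 of 3 genes of the alpha cluster and 0 of 2 genes of the beta pair passed. Scn2b and Scn4b lie 8324 bases apart on the same strand. Scn1a overlaps a predicted gene, Gm13630, on the other strand, which held 109 counts over all libraries. Scn9a overlaps 3 genes, Gm13629 among them and 2 of them on the other strand, the most counted with 284 counts. On the other strand, Scn2b overlaps Gm10684, with 176 counts, and Scn3a overlaps Gm13595, with 0. The sources used here do not say whether reads were counted by strand.

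**Figure D5:**
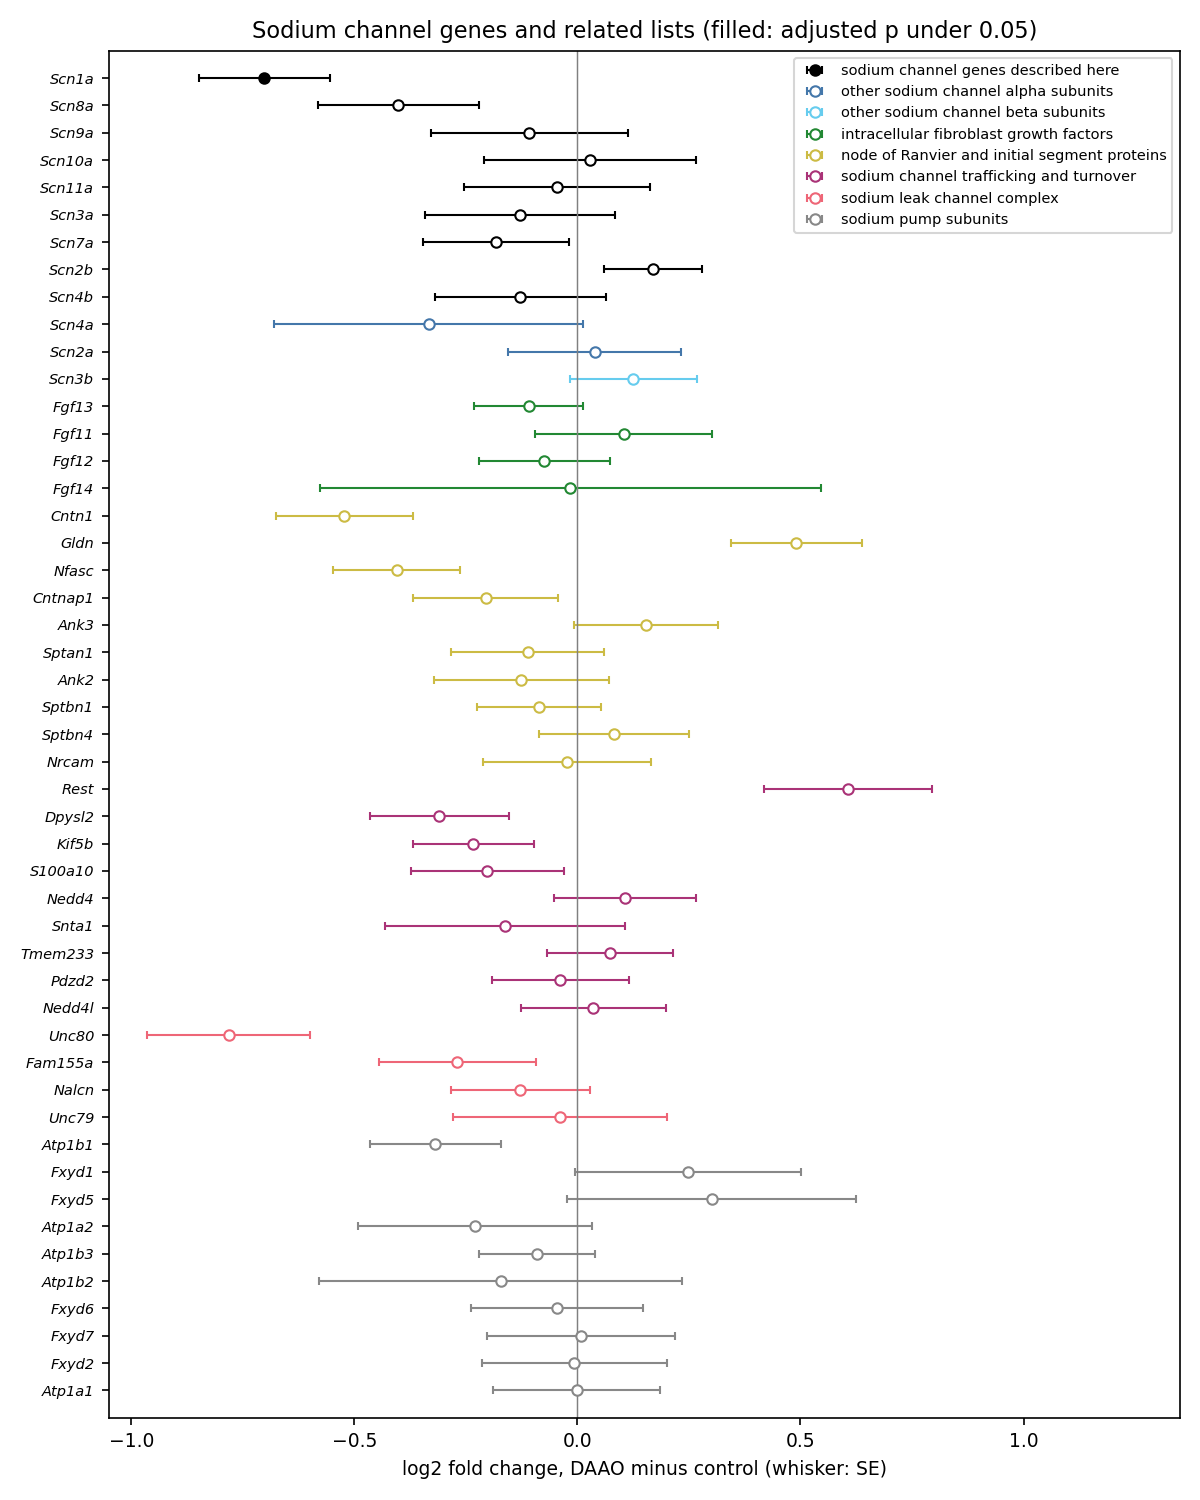
Log2 fold change (horizontal axis, DAAO minus control) with its SE for the 9 sodium channel genes and for 40 tested genes of 7 related lists, 1 gene per line, filled where the adjusted p was under 0.05. Scn1a, at -0.70, is the filled point, and Unc80, at -0.78, is the open point farthest to the left.

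Genes that act with the channels were read from 7 lists, and none of their 43 tested members passed by edgeR, with an unadjusted p under 0.05 in 7, against 10.3% of all genes. Limma-voom called 0 of the 43 (0.588% of all genes). DESeq2 (2.13% of all genes) and limma-voom with sample weights (1.81%) each called 2, Cntn1 and Unc80, both lower. Intracellular fibroblast growth factors bind the tail of the alpha subunits, and their 4 genes had a median log2 fold change of -0.04, with Fgf13 at -0.11, Fgf12 at -0.07 and Fgf11 at 0.10. The 10 proteins of the node of Ranvier and the initial segment had a median of -0.10, and 3 had an unadjusted p under 0.05. They were Cntn1, an axonal adhesion protein, with -0.52 ± 0.15 SE (adjusted p = 0.160 by edgeR), the nodal adhesion protein Nfasc with -0.41 ± 0.14 (0.292) and the Schwann cell protein gliomedin, Gldn, with 0.49 ± 0.15 (0.176). Ank3, the ankyrin that anchors channels there, had 0.15.

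In the leak channel complex, which carries a resting sodium current, 0 of 4 tested genes passed, with a median of -0.20. Unc80, its large accessory subunit, had -0.78 ± 0.18 SE (adjusted p = 0.0642 by edgeR), Fam155a had -0.27 and the pore gene Nalcn -0.13. Without control 2 Unc80 passed, with -0.88 (adjusted p = 0.0100 by edgeR), and so did Cntn1 with -0.61 (0.0201). That fit put 322 genes past the threshold over the whole table, against 128 with all 12 libraries. In the list of channel trafficking and turnover 0 of 9 passed, with a median of -0.04: Rest, a repressor of neuronal genes, had 0.61 ± 0.19 (adjusted p = 0.196 by edgeR), Dpysl2 -0.31 and Kif5b -0.23. The sodium pump, which restores the gradient the channels use, had 0 of 11 passing and a median of -0.05. Its beta subunit Atp1b1 had -0.32 ± 0.15 (adjusted p = 0.475 by edgeR) and its regulator Fxyd1 had 0.25, a value that ran from 0.11 without control 5 to 0.50 without control 2. Without controls 2 and 6, where 648 genes passed in the whole table, Atp1b1 (-0.47, adjusted p = 0.0444 by edgeR), Fxyd1 (0.79, 0.00426), Nfasc (-0.51, 0.0460), Cntn1 (-0.67, 0.00898) and Unc80 (-0.97, 0.00455) passed.

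Levels of neuron class markers were read beside Scn1a. Among 8 markers of proprioceptors, which report limb position, and of other large-diameter neurons 5 fell, where 0.247% of all genes passed as lower. They were Esrrg, Runx3, Cdh12, Etv1 and Whrn (edgeR, adjusted over all genes). All 8 markers had negative values, with a median of -1.18. Some of these markers were picked for their fall in these samples, so the list is not independent evidence. Its mean centred log2 level ran from 0.11 to 1.34 in controls and from -1.04 to -0.43 in DAAO, and its summed level from 1450 to 3324 and from 1145 to 1780 CPM. No marker passed in the lists of peptidergic nociceptors (0 of 6, median 0.12), of non-peptidergic nociceptors and pruriceptors (0 of 8, -0.07) and of C-fibre low-threshold mechanoreceptors (0 of 5, -0.01), by edgeR; 1 of these 19 had an unadjusted p under 0.05. Over all genes 10.3% had an unadjusted p under 0.05. DESeq2 and limma-voom also called 0 of these 19 markers, and limma-voom with sample weights (1.81% of all genes) called 1, Slc17a8. That marker was higher in DAAO, with a log2 fold change of 0.54 by edgeR. Of 16 pan-neuronal markers 1 fell, Snap25, only just under the threshold (adjusted p = 0.0498 by edgeR), and the median was -0.13. Their summed levels ran from 13034 to 19212 CPM in controls and from 10322 to 17308 in DAAO. When the model held the pan-neuronal level as a term, Scn1a stood at -0.60 and did not pass (adjusted p = 0.0754 by edgeR). The muscle level as a term gave -0.69 (0.0685), and the oligodendrocyte level -0.61, which passed (0.0111).

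The genes whose levels followed Scn1a most closely over the 12 libraries, among 13262 searched, were Abi2 (Pearson r = 0.950, Spearman rho = 0.909), Atp2b2 (0.948 and 0.923), Etl4 (0.942 and 0.930), Epn3 (0.941 and 0.895) and Flt3 (0.941 and 0.916). The correlations are described without a test, since the genes were ranked by this measure and share libraries and depth. Abi2 encodes a regulator of actin assembly, Atp2b2 a plasma membrane calcium pump and Flt3 a receptor tyrosine kinase. With the group means removed r was 0.942, 0.931, 0.824, 0.859 and 0.848 in the same order, and without controls 4 and 6, the libraries farthest from the Scn1a median, it lay between 0.881 and 0.933. Their log2 fold changes were -0.21, -0.42, -0.52, -0.57 and -0.76, and by edgeR none of the 5 passed, with the smallest adjusted p at Etl4 (0.0548). Other settings called some of them lower. The ranking took in the group difference of Scn1a, so these calls are not independent evidence. DESeq2, which called 2.13% of all genes, called Etl4, Epn3 and Flt3 (adjusted p = 0.00329, 0.0285 and 0.0172). Limma-voom with sample weights, which called 1.81%, called Atp2b2, Etl4 and Epn3 (0.0420, 0.00508 and 0.0326). EdgeR called Etl4 with RLE factors (0.0466), upper-quartile factors (0.0422) and a minimum count of 50 (0.0461). The same test without control 2 called Atp2b2, Etl4, Epn3 and Flt3 (adjusted p from 0.00362 to 0.0372), when 322 genes passed in the whole table.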

How the data were processed

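Total RNA of dorsal root ganglia was sequenced as paired reads, and the deposited table holds whole-number counts per gene for 12 libraries, made by the authors and not normalised. Per the submitters' processing notes, the tools included FastQC, HISAT2 2.0.5 and DESeq2 1.20.0, with GRCm38 (mm10) as the build. The counting program and strand setting were not given in the sources used here. Groups came from the labels. Genes were kept with edgeR's filterByExpr (minimum count 10, minimum total 15), which left 17002 of 54532 genes, scaled with TMM and tested 6 against 6 with the robust quasi-likelihood test of edgeR 4.0.16 in R 4.3.3 (two-sided). P-values were adjusted by Benjamini-Hochberg across the 17002 genes, and 0.05 was the threshold. Each SE was derived from the log2 fold change and its F statistic. Levels per length divide CPM by the deposited gene length. A list's level is the mean centred log2 CPM (prior count 2) of its members. No 2 libraries agreed within sampling noise (lowest chi-square per degree of freedom 18.0 over 66 pairs).

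The members and lists were chosen with earlier results of these data known. Named were all 9 genes, the 3 list members with the smallest p per list and the 5 genes most correlated with Scn1a at an average log2 CPM of at least 1, predicted genes left out; chromosomal neighbours, Ank3, Slc17a8, Prph, Pou4f1 and other markers were named after their values were seen. Some genes of the lists are counted but not reported by name here. Upstream sequence came from RefSeq on GRCm38.p6, where 8 of 9 genes had a window. Alternatives were other scalings, DESeq2 1.42.0, limma-voom (limma 3.58.1), other filters, a replicate block, marker levels as terms and libraries left out.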

Additional observations from a re-analysis of the deposited data

Results flagged for a closer look

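Each of 14 sodium channel genes was looked at in each genotype, which made 28 sets of 6 libraries. In 3 of the 28 sets a library lay far from the others, where chance flags about 1 set in 20. Scn3a in control 3 stood at 4.59 CPM, below the nearest control at 7.76. Scn4b in DAAO 5 stood at 270 CPM against 255 in the nearest DAAO library, in the group with the narrowest spread of that gene. That gap took 0.626 of the range, only just past the cut-off of 0.625. Scn4a, the skeletal muscle channel, stood at 7.74 CPM in DAAO 3, above the nearest DAAO library at 5.44.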

How the results depend on the processing

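Scn1a was lower in all 28 alternatives (-0.83 to -0.58) and passed in 16. It passed in 3 of the 12 fits that left out 1 library. Of the other 16 alternatives, some of which left out several libraries, it passed in 13 (adjusted p down to 0.00108 with DESeq2). Of the 9 genes, the number past the threshold was 0 with a pan-neuronal term, 0 with a muscle term, 0 without the libraries with Xist and Y-linked transcripts and 2 without controls 2 and 6; it was 0 to 1 when 1 library was left out. The cause of these changes was not tested. The fit without controls 2 and 6 was planned, while leaving out the libraries with Xist and Y-linked transcripts, or controls 2 and 4, was chosen after seeing the data.

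Among all genes tested 128 passed, 67.2% of them higher. The count was 362 with DESeq2 (59.9% higher), 307 with limma-voom sample weights (58.0%), 648 without controls 2 and 6 (50.9%) and 4 without the libraries with Xist and Y-linked transcripts, and 61 to 322 with 1 library left out; the cause was not tested. Library totals alone gave 77.0% higher.

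Small differences that had not passed changed sign. Scn11a was 0.023 with limma-voom, 0.016 with the replicate block, 0.078 with the pan-neuronal term and 0.036 with the oligodendrocyte term. Scn10a was -0.12 with sample weights, -0.24 without controls 2 and 6, -0.16 without the libraries with Xist and Y-linked transcripts and -0.065 without controls 2 and 4. Sample weights gave Scn3a 0.093 and Scn2a -0.053. The pan-neuronal term gave Scn9a 0.0091 and Fgf12 0.020, and the oligodendrocyte term gave Scn9a 0.030 and Scn4b 0.0083. Scn3b was -0.036 without controls 2 and 6, and without the libraries with Xist and Y-linked transcripts Scn3b, Scn2a and Fgf11 were -0.060, -0.082 and -0.19. With 1 library left out Scn10a ran from -0.15 to 0.14, Scn11a from -0.20 to 0.021, Scn9a from -0.27 to 0.021, Scn4b from -0.26 to 0.063, Scn2a from -0.11 to 0.14, Scn4a from -0.49 to 0.081 and Fgf11 from -0.029 to 0.18.

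Replicate numbers are shared between the groups, but not every same-numbered pair deviated together. The correlations of deviations ran from -0.081 to 0.21 and were positive in 4 of 6 pairs, and 3 of 6 libraries correlated best with their own number, a hint from the data and not from the design. With the replicate block Scn1a was -0.68 (adjusted p = 0.0368 by edgeR) and 187 genes passed in the whole table, 77.0% of them higher. Depth is low for Scn3a, with as few as 92 counts in a library.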
